A study of Mus musculus with 9 samples.

Results

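The genes described here are 8 core genes of the TGF-β pathway, taken by symbol from the 54534 genes listed for every library of a single-cell RNA-seq study of the mouse knee. They are the ligands Tgfb1, Tgfb2 and Tgfb3, the receptors Tgfbr1 and Tgfbr2, the latent TGF-β binding proteins Ltbp1 and Ltbp2, and the target gene Tgfbi. All 8 had UMIs (unique molecular identifiers, each counting 1 captured RNA molecule), and all 8 passed the filter on low counts in every comparison below.

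TGF-β is secreted in a latent form, held by its own propeptide and often tethered to the matrix by LTBP proteins, and it signals only after release by integrins, proteases or thrombospondin. The active ligand brings together a type II receptor and a type I receptor kinase, which phosphorylates Smad2 and Smad3, and these enter the nucleus with Smad4. In joints the pathway is known for its part in cartilage homeostasis and in the matrix production and contractile phenotype of activated fibroblasts.

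All mice carried Gdf5-Cre, a Cre-dependent tdTomato (Tom) and a GFP nuclear reporter driven by Pdgfrα, and were 11 to 12 weeks old. The figure legends of the study give 11 weeks for the steady and 12 weeks for the injured mice. Age thus moved with injury, and its part in the injury results was not tested. Sorted live knee cells were either Tom+, the descendants of cells that once expressed Gdf5 in the embryonic joint interzone, or Tom-GFP+, which lack that label and express Pdgfrα. The steady state had 2 Tom+ libraries and 1 Tom-GFP+ library, and 6 days after surgical opening of the joint with a cartilage scratch in the trochlear groove there were 4 Tom+ and 2 Tom-GFP+ libraries. Every library came from a mouse of its own within its lineage, and the Tom-GFP+ mice are described as matched to Tom+ mice, without labels that name the matches.

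The libraries held 5161 barcodes and 64499680 UMIs, and 4788 cells passed the filters. Median depth was 8050.5 to 8647 UMIs per cell in the 3 steady libraries and 12223 to 18567 in the 6 injured ones, so depth moved with injury, and its part in the injury results was not tested. Tom+ injured 1, the deepest library, is also the only injured library whose gene list has the older format of the steady libraries. In all, 14 barcodes occurred in more than 1 library. Cells were assigned to classes by marker genes that include none of the 8 genes. The largest were 2623 Thy1+ fibroblasts (the sublining type, with Thy1 or Cd34) and 636 fibroblast-like synoviocytes (FLS, lining cells with Prg4 and Clic5). Summed FLS markers reached 27473 to 49312 CPM (UMI counts scaled to 1 common total for each class and library) in FLS and 398.6 to 2689.7 CPM in Thy1+ fibroblasts. Immune markers summed to at most 3.2 CPM in FLS and 2.4 CPM in Thy1+ fibroblasts. The gates used these same markers, so the sums describe the gating and are no independent check of the classes.

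The 5′ flanks of 3 of the genes are shown because Tgfb1 and Tgfb2 are ligands that differed in opposite directions between lining and sublining, and Tgfbi is the target. The sequences are RefSeq promoters on GRCm38.p6, in gene orientation, 5′ to 3′, from up to 250 bases before the transcription start, at chr7:25686752-25687001 (plus strand, Tgfb1), chr1:186705990-186706239 (minus strand, Tgfb2) and chr13:56609336-56609522 (plus strand, Tgfbi, ended before the annotated first exon). Capitals mark the Smad-binding core CAGAC or the GC box GGGCGG, on either strand.
Tgfb1: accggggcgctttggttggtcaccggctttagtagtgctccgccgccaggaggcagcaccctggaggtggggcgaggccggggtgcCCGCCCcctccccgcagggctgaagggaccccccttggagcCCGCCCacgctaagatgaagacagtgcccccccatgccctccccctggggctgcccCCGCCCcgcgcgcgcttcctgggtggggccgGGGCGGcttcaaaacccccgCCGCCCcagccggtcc
Tgfb2: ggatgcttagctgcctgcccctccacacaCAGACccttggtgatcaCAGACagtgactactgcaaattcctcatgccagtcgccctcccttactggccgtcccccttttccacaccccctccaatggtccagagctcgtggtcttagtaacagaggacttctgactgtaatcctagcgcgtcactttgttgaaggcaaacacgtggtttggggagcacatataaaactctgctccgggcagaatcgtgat
Tgfbi: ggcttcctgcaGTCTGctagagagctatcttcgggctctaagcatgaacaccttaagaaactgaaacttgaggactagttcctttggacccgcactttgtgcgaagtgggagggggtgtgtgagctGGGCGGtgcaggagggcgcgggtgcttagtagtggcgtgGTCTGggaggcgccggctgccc

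The Tgfb1 flank held 5 GC boxes and no CAGAC, at 75.2% G and C. The Tgfb2 flank held 2 CAGAC and no GC box, at 53.6% G and C, and the Tgfbi flank held 2 CAGAC and 1 GC box. Among 32851 mouse promoters, 42.2% had CAGAC and 32.7% had GGGCGG in the 250 bases before the start, so either match is common. The AP-1 motif TGANTCA, found in 6.75% of promoters, was in none of the 9 promoters listed for 7 of the 8 genes. A match is a string of letters in a window and no evidence of binding.

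Which ligand's RNA prevailed differed between the lining and the sublining. In FLS, Tgfb1 was the main ligand, and in Thy1+ fibroblasts no ligand held most of the ligand UMIs on average. Tgfb1, the isoform most often tied to fibrosis and immune regulation (GRCm38 chromosome 7, 25687002 to 25705077, plus strand), was at 56.4 to 149 CPM in FLS (median 80.1, 8 libraries) and at 26.2 to 67.6 CPM in Thy1+ fibroblasts (median 41.4, 9 libraries). The ranges overlapped across libraries, but within each of the 8 libraries with both classes FLS had the higher level. The log2 fold change was 1.01 ± 0.13 (SE; adjusted p = 1.99e-05, edgeR quasi-likelihood test with the library as a block). The other ligands ran the other way. Folds given here and below are on the log2 scale.

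Tgfb2, an isoform prominent in development and in mesenchymal tissues (chromosome 1, 186622792 to 186705989, minus strand), was at 9.56 to 39.4 CPM in FLS (median 22.6) and 26.2 to 82.6 CPM in Thy1+ fibroblasts (median 54.2). It was lower in FLS in 7 of 8 libraries, the exception being Tom-GFP+ injured 1 at 29.5 against 26.2 CPM, with a log2 fold change of -1.49 ± 0.22 (adjusted p = 5.33e-05, same test). Tgfb3, an isoform known from palate and tendon development (chromosome 12, 86056745 to 86079041, minus strand), was at 9.96 to 41.3 CPM in FLS (median 12.1) and 32.5 to 75.8 CPM in Thy1+ fibroblasts (median 50.7). It was lower in FLS in 8 of 8 libraries (log2 fold change -1.86 ± 0.17, adjusted p = 3.99e-07). Genes on the opposite strand overlap Tgfb2, Tgfb3 and Ltbp2, and the strand setting of the counting is not given in the sources used here.

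As a share of all UMIs of the 3 ligands, Tgfb1 made up 69.4% ± 9.15 (SD, n = 8 libraries) in FLS, from 54.3% to 79.6%. In Thy1+ fibroblasts its share was 29.3% ± 8.37 (n = 9), from 17.7% to 41.4%, so the ranges of the classes did not overlap. Tgfb2 and Tgfb3 had mean shares of 16.7% and 13.9% in FLS and 34.9% and 35.8% in Thy1+ fibroblasts. These shares rest on 36 to 382 ligand UMIs per library in FLS and 249 to 1271 in Thy1+ fibroblasts.

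**Figure D1:**
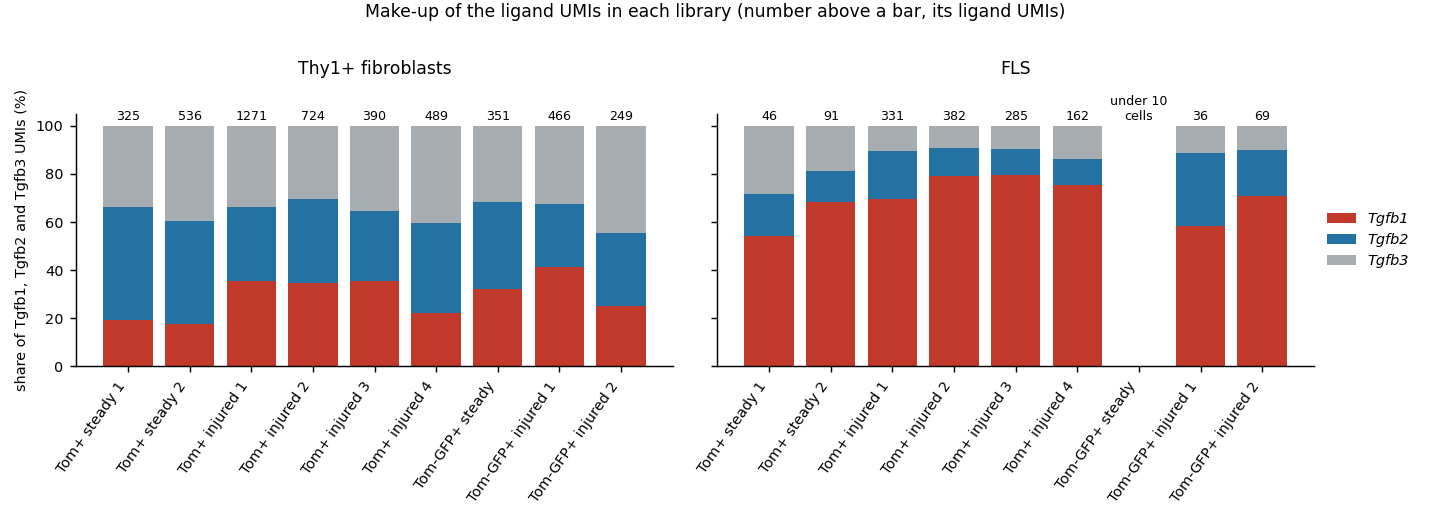
Stacked bars give the share of Tgfb1, Tgfb2 and Tgfb3 in the UMIs of the 3 ligands (percent, y axis) in each library, for Thy1+ fibroblasts on the left and FLS on the right, with the number of ligand UMIs above each bar. Tgfb1 holds 54.3% to 79.6% in the 8 FLS libraries and 17.7% to 41.4% in the 9 Thy1+ libraries.

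The receptors' RNAs also stood in different proportion. Tgfbr1, the type I receptor kinase (chromosome 4, 47353222 to 47414931, plus strand), was at 31.2 to 65.6 CPM in FLS (median 45.5) and 16.1 to 29.1 CPM in Thy1+ fibroblasts (median 22.4). All FLS values lay above all Thy1+ values, with a log2 fold change of 1.00 ± 0.16 (adjusted p = 0.00012). FLS had the highest mean Tgfbr1 level of the classes, 47.8 ± 11.8 CPM, though the step down to the class after it was no larger than the spread between libraries. Tgfbr2, the type II receptor that binds the ligand directly (chromosome 9, 116084293 to 116175360, minus strand), was the more abundant receptor in both classes. It ranged from 86.0 to 229 CPM in FLS (median 134) and from 134 to 242 CPM in Thy1+ fibroblasts (median 199), and it was lower in FLS in 7 of 8 libraries (log2 fold change -0.55 ± 0.13, adjusted p = 0.00276). Thy1+ fibroblasts had the highest mean of the classes, 189 ± 42.5 CPM, and here the gap to FLS, which came next, was larger than the SD between libraries. Tgfbr1 thus made up 26.8% ± 6.92 of the UMIs of both receptors in FLS and 11.1% ± 3.25 in Thy1+ fibroblasts.

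Among the matrix proteins that hold latent TGF-β, Ltbp1, which tethers the latent complex to fibrillin microfibrils (chromosome 17, 75005568 to 75392512, plus strand), was at 13.1 to 47.7 CPM in FLS (median 26.1). In Thy1+ fibroblasts it was at 60.5 to 155 CPM (median 105), above all FLS values (log2 fold change -2.34 ± 0.18, adjusted p = 8.68e-08). Ltbp2 (chromosome 12, 84783212 to 84876532, minus strand), a microfibril protein of the same family that does not itself bind latent TGF-β, was low and uneven. Its FLS values were 31.8 and 69.6 CPM in the steady Tom+ libraries, 39.96, 2.16, 1.07 and 1.59 in the injured Tom+ libraries, and 5.37 and 1.52 in the injured Tom-GFP+ libraries. No difference between the classes was called (log2 fold change -1.08 ± 0.54, unadjusted p = 0.066, adjusted p = 0.132, edgeR). The 95% interval by a normal approximation, -2.14 to -0.02, is narrower than that test implies.

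Tgfbi, a secreted matrix and adhesion protein induced by TGF-β in many cell types (chromosome 13, 56609523 to 56639562, plus strand), was the most abundant of the 8 in Thy1+ fibroblasts. It ranged there from 240 to 864 CPM (median 441) and in FLS from 39.6 to 374 CPM (median 49.9). It was lower in FLS in 8 of 8 libraries (log2 fold change -2.39 ± 0.22, adjusted p = 4.40e-07). FLS values of 216, 374 and 184 CPM in Tom+ steady 2, injured 1 and injured 2 stood above the other 5, which were at 39.6 to 54.1 CPM.

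Counted together, 7 of the 8 genes were called between FLS and Thy1+ fibroblasts, 2 higher and 5 lower in FLS. This is a contrast in which 39.4% of 9992 genes were called, 19.4% higher and 20% lower. The median log2 difference was -1.28 over the 8 genes and -0.00 over all genes tested. The 7 calls held under all 18 alternatives tried, and Ltbp2 was called lower under 4 of them.

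**Figure D2:**
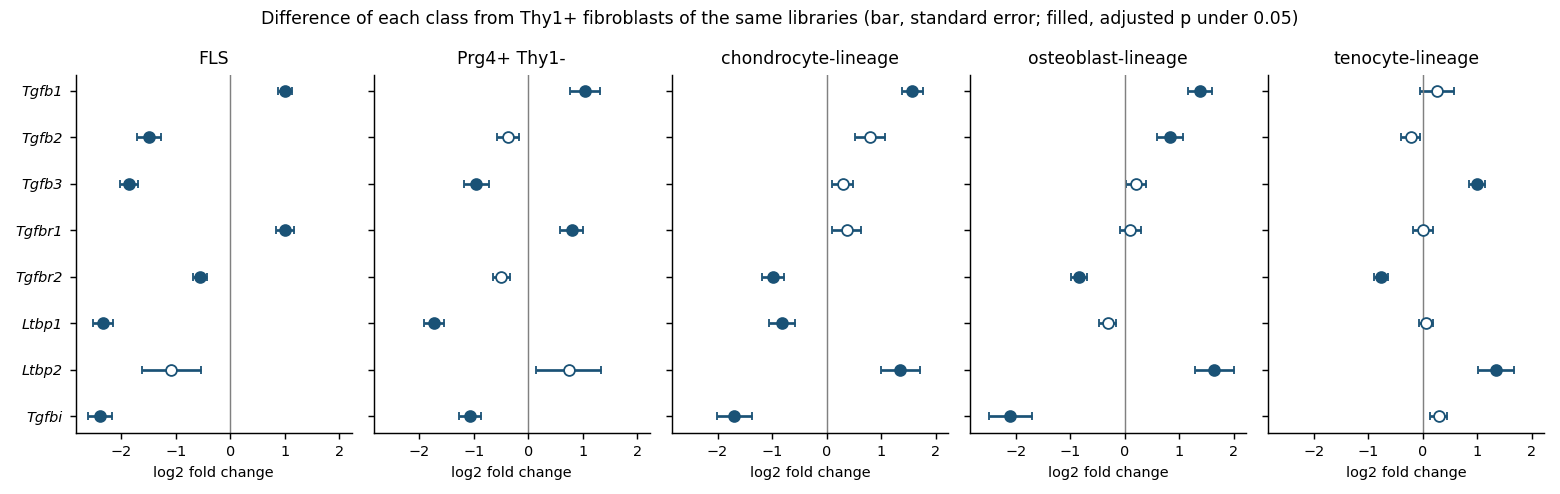
Log2 fold change of each gene against Thy1+ fibroblasts of the same libraries (x axis, bars show the SE) for FLS, Prg4+ Thy1-, chondrocyte-lineage, osteoblast-lineage and tenocyte-lineage cells, filled where the adjusted p is under 0.05. In FLS, Tgfb1 and Tgfbr1 lie to the right of 0 and the other 6 genes to the left, Ltbp2 unfilled.

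A further class of 166 cells with abundant Prg4 but without Clic5, Thy1 or Cd34 (called Prg4+ Thy1- here) was measured in 5 libraries, and 7.55% of genes differed from Thy1+ fibroblasts (2.82% higher, 4.73% lower). Of the 8 genes, 5 were called. Tgfb1 was higher (log2 fold change 1.03 ± 0.27, adjusted p = 0.032, 5 of 5 libraries), as was Tgfbr1 (0.79 ± 0.21, adjusted p = 0.0337). Ltbp1 (-1.73 ± 0.18, adjusted p = 4.07e-05), Tgfbi (-1.07 ± 0.20, adjusted p = 0.00377) and Tgfb3 (-0.96 ± 0.23, adjusted p = 0.0182) were lower. The calls for Tgfb1, Tgfb3 and Tgfbr1 were lost when single libraries were left out, Tom+ injured 2 among them for each of the 3. The Tgfb1 call was also lost with DESeq2, and the Tgfb3 call without the highest doublet scores. For Tgfbr1 the call was kept under 9 of 17 alternatives. It was also lost with DESeq2, with no filter on low counts, with the stricter cell filter and on thinned cells. The calls for Ltbp1 and Tgfbi were kept. Tgfb1 made up 58.2% ± 7.94 of ligand UMIs in these cells (n = 5). Chondrocyte markers summed to 2537 CPM in the Tom+ steady 2 cells of this class and to 31.1 to 128 CPM in the 4 injured libraries. That library also had the highest Tgfb1 level, 269 CPM, and a Tgfb1 share of 70.0% against 49.4% to 61.8% in the others. Without it the Tgfb1 log2 fold change was 0.64 (adjusted p = 0.0128, edgeR).

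Like FLS, chondrocyte-lineage and osteoblast-lineage cells had more Tgfb1 and less Tgfbr2 and Tgfbi than Thy1+ fibroblasts. Chondrocyte-lineage cells also shared the lower Ltbp1. Unlike FLS, both lineages were called higher for Ltbp2. Chondrocyte-lineage cells (172 cells) had 5 of the 8 called, 2 higher and 3 lower, with 18.5% of all genes called (8.04% higher, 10.4% lower). Osteoblast-lineage cells (230 cells) also had 5 called, 3 higher and 2 lower, with 9.17% of all genes called (4.36% higher, 4.81% lower). Their gate is broad, since it required 2 of 7 markers and 145 of the 230 cells carried exactly 2. Tgfb1 was at 71.4 to 262 CPM in chondrocyte-lineage cells (median 119, 8 libraries), above every Thy1+ value, with a log2 fold change of 1.57 ± 0.19 (adjusted p = 3.70e-05). In osteoblast-lineage cells it was at 33.9 to 199 CPM (median 104, 7 libraries; 1.38 ± 0.22, adjusted p = 0.00114). Both lineages had less Tgfbr2 (-0.99 ± 0.20 and -0.85 ± 0.15, adjusted p = 0.00322 and 0.00251) and less Tgfbi (-1.69 ± 0.32 and -2.10 ± 0.39, adjusted p = 0.00154 and 0.00415). Osteoblast-lineage cells had the highest mean of Tgfb2, 113 ± 62.3 CPM, from 11.3 to 206.5 CPM. The step down to chondrocyte-lineage cells, at 88.6 ± 48.0 CPM, was no larger than the spread between libraries. The Tgfb2 call of osteoblast-lineage cells against Thy1+ fibroblasts (0.83 ± 0.24, adjusted p = 0.0468, edgeR) was lost under 11 of 18 alternatives. In the osteoblast-lineage cells of Tom-GFP+ injured 2 the FLS markers summed to 14858 CPM, above the osteoblast markers at 3498 CPM, while FLS markers were at 26.1 to 1002 CPM in the other libraries. Without that library all 5 calls were kept (Tgfb1 1.48, Tgfb2 0.95, Tgfbr2 -0.90, Ltbp2 1.78 and Tgfbi -1.94).

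Ltbp2 was higher in both chondrocyte-lineage and osteoblast-lineage cells (1.36 ± 0.35 and 1.64 ± 0.36, adjusted p = 0.0143 and 0.0106), and with 1 marker more per gate the osteoblast-lineage call was lost (1.60, adjusted p = 0.238). In chondrocyte-lineage cells that Ltbp2 call was lost without Tom+ injured 2, with 1 marker more per gate (1.11), on thinned cells (0.15) and with clusters (0.32). Ltbp1 was lower in chondrocyte-lineage cells (-0.82 ± 0.25, adjusted p = 0.0299), a call lost without Tom-GFP+ steady, Tom+ injured 2 or Tom+ injured 4, with 1 marker more per gate (-0.99, adjusted p = 0.077) and on thinned cells (-0.80, adjusted p = 0.157). In chondrocyte-lineage cells osteoblast markers summed to 1156 to 17559 CPM, above the chondrocyte markers in Tom+ injured 2 (7842 against 7577 CPM) and Tom-GFP+ injured 2 (17559 against 11660 CPM). FLS markers there summed to 3988 to 16853 CPM in the Tom+ and 61.6 to 247 CPM in the Tom-GFP+ libraries. Without Tom+ injured 2 or Tom-GFP+ injured 2 the calls for Tgfb1 (1.63 and 1.51), Tgfbr2 (-1.03 and -0.83) and Tgfbi (-1.84 and -1.69) were kept.

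Tenocyte-lineage cells (179 cells with Tnmd, 7 libraries) had 3 of the 8 called, 2 higher and 1 lower, where 4.76% of all genes were (2.07% higher, 2.69% lower). Tgfb3 was at 50.6 to 141 CPM (median 112) and higher than in Thy1+ fibroblasts (log2 fold change 0.99 ± 0.15, adjusted p = 0.000649). It made up 52.9% ± 12.0 of ligand UMIs there. Tgfbr2 was lower (-0.76 ± 0.13, adjusted p = 0.0016) and Ltbp2 higher (1.34 ± 0.33, adjusted p = 0.0233), the Ltbp2 call being lost without Tom+ steady 2, Tom+ injured 4 or either injured Tom-GFP+ library, on thinned cells (1.11, adjusted p = 0.164) and without the highest doublet scores (1.13, adjusted p = 0.074). Mural cells, the contractile cells of vessel walls, reached the minimum of 10 cells in 2 libraries only. Of the 8 genes 4 were called lower there, with 18.0% of all genes called (8.3% higher, 9.69% lower). Tgfbr2 was among them, at 40.5 and 66.7 CPM. Its mean was the lowest of the classes, though the step from immune cells, at 70.8 ± 12.5 CPM, was no larger than the spread between libraries. The Ltbp1 call in mural cells was not shared by DESeq2 (adjusted p = 0.363).

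**Figure D3:**
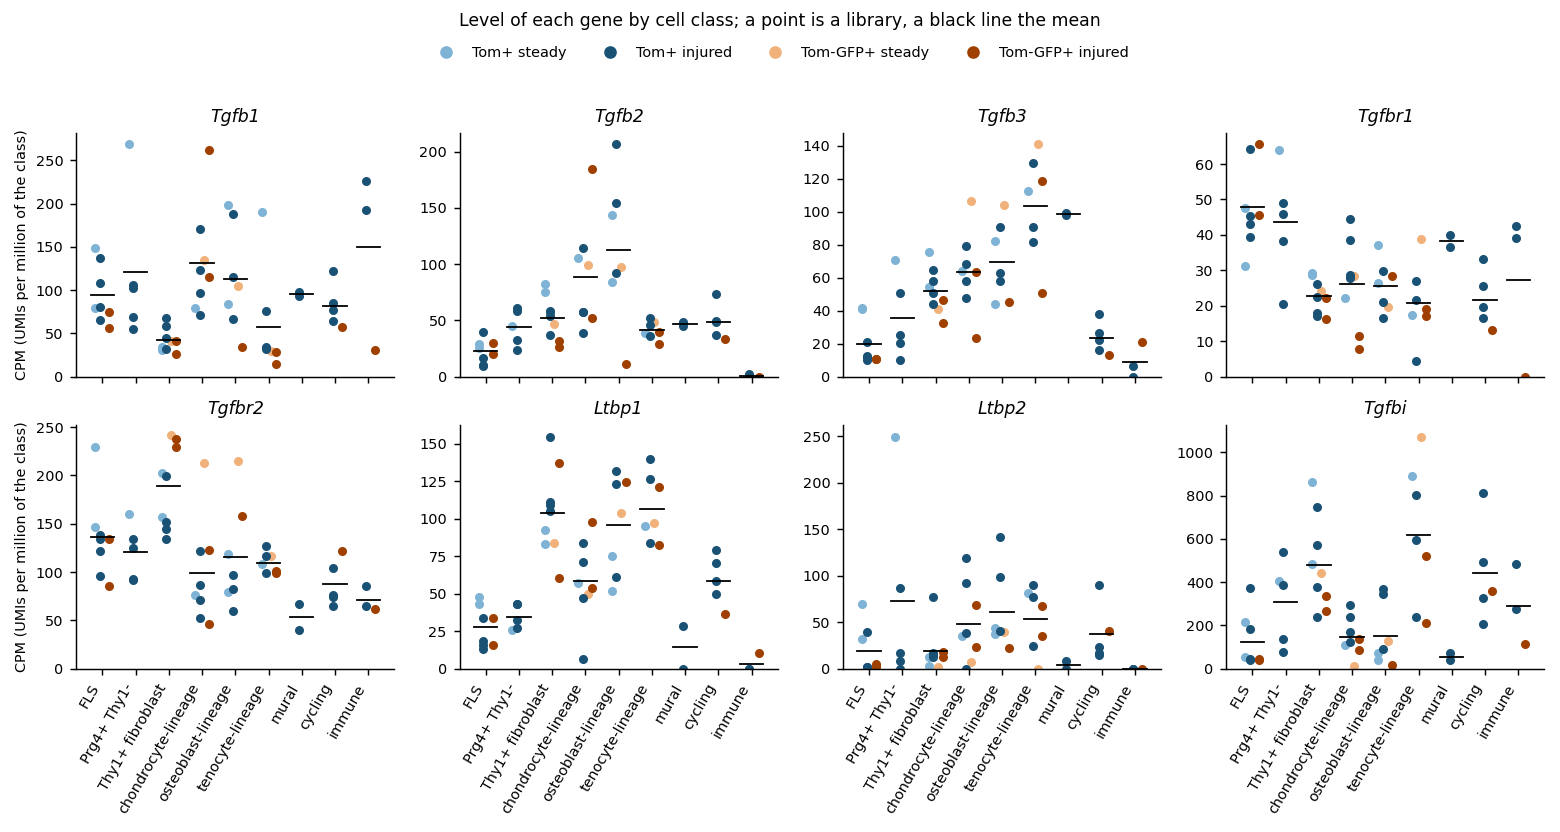
Level of each of the 8 genes (CPM, linear axis from 0) by cell class, 1 point per library with at least 10 cells of the class, coloured by lineage and state, with a black line at the mean. The mean of Tgfbr1 is highest in FLS, at 47.8 CPM, and that of Tgfbr2 in Thy1+ fibroblasts, at 189 CPM.

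Of the 2623 Thy1+ fibroblasts, 1346 carried at least 3 of 7 markers of the Dpp4+ type, a fibroblast type described as adventitial in many tissues. Dpp4 and Pi16 are among the 7 markers, but neither was required, and 511 of the cells carried exactly 3. The gate is thus broad, and its cells are called Dpp4+ here for short. Compared with the other Thy1+ fibroblasts in 9 libraries, 11.7% of genes (6.32% higher, 5.42% lower) and 4 of the 8 (2 higher, 2 lower) were called. Tgfbr2 was at 154 to 292 CPM (median 264) in Dpp4+ cells and 89.7 to 178 CPM (median 132) in the others. It was higher in 9 of 9 libraries (log2 fold change 0.79 ± 0.08, adjusted p = 1.99e-06), although the ranges overlapped. Tgfb3 was lower in 9 of 9 libraries (-0.76 ± 0.09, adjusted p = 3.0e-05), and Ltbp1 was higher in 8 of 9 (0.48 ± 0.11, adjusted p = 0.00508). Tgfb2 was lower in 9 of 9 libraries (-0.43 ± 0.08, adjusted p = 0.00148), but with classes taken from clusters its direction turned (0.07, adjusted p = 0.766) and the Ltbp1 call was lost. Tgfbi (-0.17) and Ltbp2 (-0.41) were not called, but with 1 marker more per gate and on thinned cells both were called lower in Dpp4+ cells. Tgfbr1 made up 9.05% of receptor UMIs in Dpp4+ cells and 15.9% in the others.

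Another subset, 463 Thy1+ cells with both Lrrc15 and Adam12, came from the 6 injured libraries, 33 to 171 cells each, and no cell of the 3 steady libraries passed that gate. Their median depth was 13248 to 22206 UMIs, against 8527 to 15906 UMIs in the other Thy1+ cells of the same libraries, and its part in the result was not tested. Compared within those libraries, 15% of genes were called (7.81% higher, 7.24% lower). Of the 8 genes, Tgfbi was called, at 350 to 815 CPM (median 423) in these cells. It was higher than in the other Thy1+ cells of the same library in 6 of 6 (log2 fold change 0.52 ± 0.09, adjusted p = 0.00174). With gates applied to cells thinned to 4000 UMIs the log2 fold change was 0.54 and the call was lost (adjusted p = 0.101). Tgfb1 (0.30, adjusted p = 0.0776), Tgfbr2 (-0.25, adjusted p = 0.0776) and Ltbp1 (-0.31, adjusted p = 0.0597) did not pass. Without Tom+ injured 1, Ltbp1 was called lower (-0.45, adjusted p = 0.00839), and without Tom-GFP+ injured 1, Tgfbr2 was (-0.35, adjusted p = 0.0193).

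The question of the injured libraries is how these genes stood 6 days after injury. Cells with at least 3 of 8 cycling markers (298 cells) formed a class of their own and are in neither the Thy1+ fibroblasts nor the FLS. That class reached 10 cells in 5 libraries, all of them injured. Its mean Tgfb1 was 81.1 CPM and its mean Tgfbr2 88.1 CPM. Thy1+ fibroblasts had means of 50.4 and 158 CPM in the 4 injured Tom+ libraries, and 33.9 and 234 CPM in the 2 injured Tom-GFP+ libraries. The cycling class is mixed. Its FLS markers summed to 2997 to 11664 CPM, and its chondrocyte markers to 8401 CPM in Tom+ injured 4 and 37.2 to 236 CPM in the others. The part of this gate in the injury results was not tested. In Tom+ Thy1+ fibroblasts none of the 8 was called by edgeR and DESeq2 called 0, while edgeR called 15.1% of the 12540 genes tested (7.13% higher, 8.01% lower). At an unadjusted p under 0.05 in edgeR there were 2 of the 8 genes and 3930 of the 12540. Summed FLS markers in these cells were at 620 and 931 CPM in the steady and 2690, 2647, 996 and 848 CPM in the injured libraries. Their part in the Tgfb1 levels here and the ligand shares below was not tested. Tgfb1 was at 31.1 and 34.1 CPM in the steady libraries and 67.6, 57.9, 44.2 and 31.8 CPM in the injured ones. Injured 4 thus lay between the steady values, and the log2 fold change was 0.67 ± 0.30 (adjusted p = 0.164). With a block for the gene list format, which in effect compares the steady libraries with Tom+ injured 1 alone, it was 1.07 ± 0.33 (adjusted p = 0.0466).

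Tgfb2 was at 75.0 and 82.6 CPM in steady and 58.3, 57.6, 36.5 and 54.2 CPM in injured Tom+ Thy1+ fibroblasts. All injured values lay below both steady values, with a log2 fold change of -0.57 ± 0.20 (adjusted p = 0.083). Leaving out Tom+ injured 1 gave -0.68 (adjusted p = 0.0417), but then gene list format and injury cannot be told apart. The same fold in the Tom-GFP+ lineage was -0.65 ± 0.29 (adjusted p = 0.239), from 46.6 CPM in the steady library to 26.2 and 31.2 CPM. Tgfbr1 was at 29.1 and 28.7 CPM in steady and 17.2, 26.2, 22.4 and 18.0 CPM in injured Tom+ libraries. Its values again did not overlap, and it was not called (-0.43 ± 0.22, adjusted p = 0.22, edgeR). How many of all genes lacked such overlap is not given, so non-overlap here and below is a description only.

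Ltbp1 was at 92.7 and 83.0 CPM in steady and 109, 111, 105 and 155 CPM in injured Tom+ Thy1+ fibroblasts. These values did not overlap, and Ltbp1 was not called (log2 fold change 0.49 ± 0.31, adjusted p = 0.315, edgeR). Ltbp2 was at 3.45 and 12.9 CPM in steady and 77.6, 16.8, 13.1 and 14.7 CPM in injured libraries. The groups did not overlap, although Tom+ injured 3 and steady 2 were nearly level and Tom+ injured 1 stood far above the rest (1.91 ± 0.85, adjusted p = 0.157). With the gene list format as a block, which leans on that library, the Ltbp2 log2 fold change was 3.19 ± 0.42 (adjusted p = 0.00059). Tgfb3 (-0.22), Tgfbr2 (-0.15) and Tgfbi (-0.44 ± 0.39) overlapped between states. Tgfbi was at 486 and 864 CPM in steady and 749, 573, 377 and 240 CPM in injured libraries.

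In Tom-GFP+ Thy1+ fibroblasts, where 2.58% of genes were called (0.957% higher, 1.63% lower), none of the 8 was called. The steady state there is 1 library, whose spread was taken from the other groups. Ltbp2 was at 1.83 CPM in the steady library and 12.9 and 18.3 CPM in the injured ones (3.10 ± 1.58, adjusted p = 0.291). Without Tom+ injured 1 that fold was 3.05 and Ltbp2 was called higher. With no filter on low counts and with the gene list format as a block Ltbp2 was also called higher. Under 15 of 18 alternatives it stayed not called. In this lineage the steady library has the older gene list format and both injured libraries the newer, so format and injury cannot be told apart. The difference of the injury effect between lineages was called for 0.0% of genes, with edgeR calling 0 of 12540 (268 had an unadjusted p under 0.05) and DESeq2 calling 2, and for none of the 8.

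**Figure D4:**
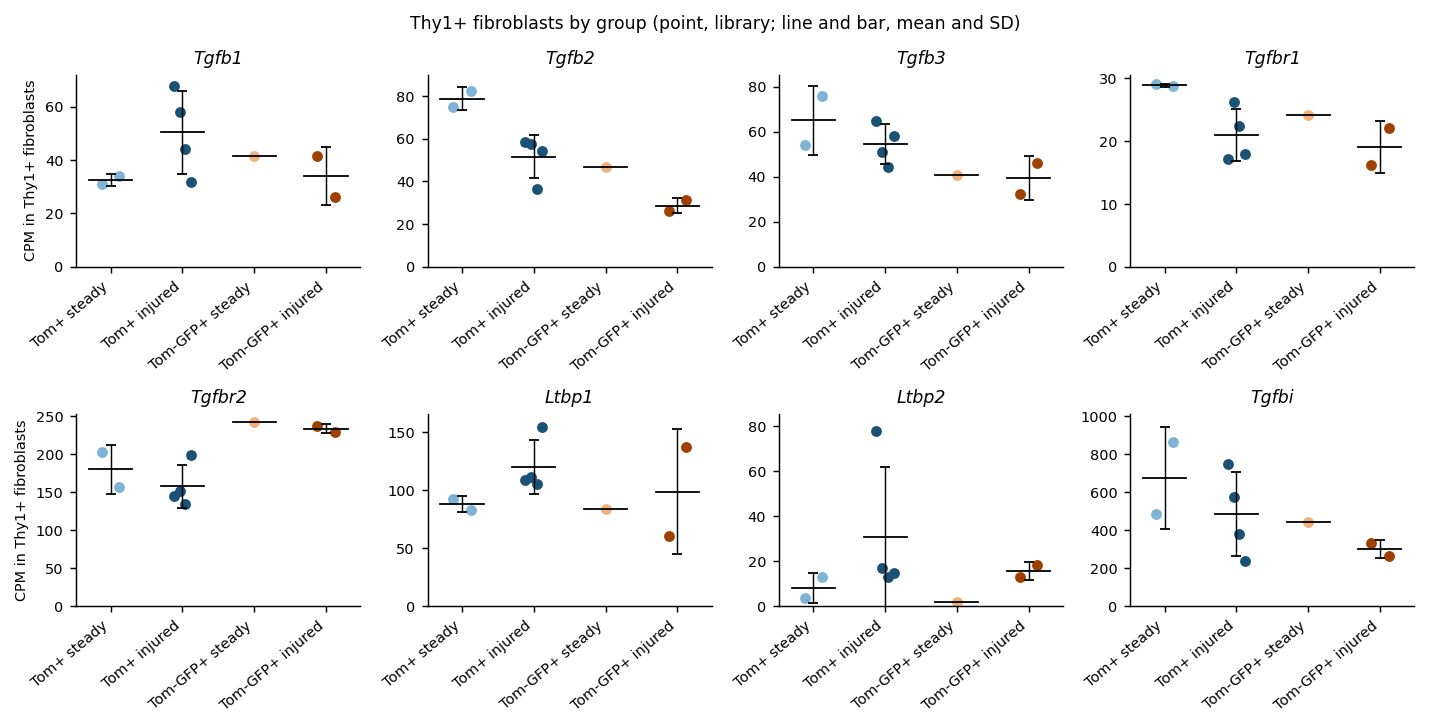
Level of each gene in Thy1+ fibroblasts (CPM, y axis from 0) by lineage and state, 1 point per library, with a line at the mean and a bar for the SD where a group has more than 1 library. Tgfb2 lies at 75.0 and 82.6 CPM in the steady and at 36.5 to 58.3 CPM in the injured Tom+ libraries.

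Between the lineages, none of the 8 was called in injured Thy1+ fibroblasts, where edgeR called 0.0159% of genes (0.00797% in each direction), or in steady ones, where it called 0.0319% (0.00797% higher, 0.0239% lower). At an unadjusted p under 0.05 in edgeR there were 2 of the 8 genes and 696 of the 12540 tested in the injured state. In the injured state Tgfb2 was at 36.5 to 58.3 CPM in the 4 Tom+ libraries and 26.2 and 31.2 CPM in the Tom-GFP+ libraries, without overlap (log2 fold change 0.88 ± 0.22, adjusted p = 0.326). Tgfbr2 was at 134 to 199 CPM in the Tom+ and 238 and 230 CPM in the Tom-GFP+ libraries, also without overlap (-0.54 ± 0.20, adjusted p = 0.723). In the steady state the Tgfb2 difference was 0.80 ± 0.30 (adjusted p = 0.771) and 75.0 and 82.6 CPM stood against 46.6 CPM.

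In Tom+ FLS, injury was tested on 2 steady libraries with 21 and 29 FLS and 4 injured libraries with 91 to 177. Here 3.94% of 9011 genes were called (1.23% higher, 2.71% lower), and of the 8 genes Tgfb3 was called. It was at 41.3 and 40.8 CPM in steady and 20.9, 12.6, 10.0 and 11.7 CPM in injured FLS, from 13 and 17 UMIs and from 22 to 35 UMIs. All injured values were below the steady ones, and Tgfb3 fell by 1.56 ± 0.35 on the log2 scale (adjusted p = 0.033). The size stayed near this without each of 7 libraries in turn, but the call was lost each time (adjusted p from 0.0562 to 0.195), as it was with the gene list format as a block (-0.97, adjusted p = 0.324) and with gates applied to thinned cells (-1.86, adjusted p = 0.0537). The libraries whose loss ended the call were both steady ones, Tom+ injured 2, 3 and 4 and both injured Tom-GFP+ ones, which enter through the shared estimate of spread. Osteoblast markers summed to 54.1 and 55.2 CPM in the steady and 2.13 to 13.8 CPM in the injured Tom+ FLS, and their part in the Tgfb3 result was not tested.

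Ltbp1 was at 47.7 and 43.2 CPM in steady and 13.1, 18.7, 16.01 and 34.0 CPM in injured Tom+ FLS, without overlap and not called (log2 fold change -1.11 ± 0.43, adjusted p = 0.177). For Ltbp2 the fold was -2.36 ± 1.12 (adjusted p = 0.264), and without Tom+ injured 1, where it stayed at 39.96 CPM, it was -4.91 (adjusted p = 0.000119). Without that library, gene list format and injury cannot be told apart. Over 20 alternatives the Ltbp2 fold ran from -4.91 to -0.38, and under 17 of them it stayed not called. FLS were too few in the steady Tom-GFP+ library, at 2 cells, for an injury comparison in that lineage.

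The ligand shares were compared between states in the same classes. In Tom+ Thy1+ fibroblasts the Tgfb1 share was 18.6% ± 1.17 (n = 2) in steady and 31.9% ± 6.58 (n = 4) in injured libraries, and in Tom+ FLS it was 61.2% ± 9.75 and 75.9% ± 4.67. The Tgfb1 level itself was 114 ± 49.0 CPM (n = 2) in steady and 97.8 ± 31.9 CPM (n = 4) in injured Tom+ FLS (log2 fold change -0.21 ± 0.33, adjusted p = 0.785, edgeR). The Tgfb1 levels overlapped between states in both classes. The Tgfb1 shares did not overlap in either class. The two-sided exact permutation test of the shares gave p = 0.0667 for each, the smallest that 4 against 2 libraries allow (adjusted p = 0.1 over 6 tests). The same exact test gave p = 0.0667 for the Tgfb2 share in Thy1+ fibroblasts, 44.8% against 33.0%, and for the Tgfb3 share in FLS, 23.5% against 10.8%. For Tgfb3 in Thy1+ fibroblasts and Tgfb2 in FLS the exact test gave p = 0.733. With 1 marker more per gate the exact p of the Tgfb1 share was 0.133 in Thy1+ fibroblasts and 0.2 in FLS. Without the highest doublet scores the exact p in Thy1+ fibroblasts was 0.133 for the Tgfb1 and for the Tgfb2 share. The exact p of the Tgfb3 share in FLS stayed at 0.0667 in both settings.

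Other genes of the pathway were read from 5 lists of 62 genes in all. In injured Tom+ Thy1+ fibroblasts 24 of the 60 tested were called higher and 1 lower, with a median log2 fold change of 0.69 against 0.04 over all genes, where 7.13% of all genes were called higher and 8.01% lower. Most were matrix and contractile targets, 13 of 18 higher and 0 lower, with a median of 2.38. The lists were chosen with earlier results of these data known, so these counts are not independent evidence. Markers of mural cells, which are themselves contractile, summed to 126 and 153 CPM in the steady and 354, 152, 394 and 149 CPM in the injured Tom+ Thy1+ fibroblasts, and in Tom-GFP+ cells to 73.7 CPM in the steady and 391 and 162 CPM in the injured libraries. Their part in these results was not tested. Cthrc1, a secreted protein of activated fibroblasts, was at 25.9 and 32.1 CPM in the steady and 1480 to 4317 CPM in the injured libraries (log2 fold change 6.61 ± 0.62, adjusted p = 0.000746). The matrix glycoprotein gene Tnc (4.89, adjusted p = 0.00172) and the actin-binding protein gene Tagln (4.62, adjusted p = 0.0045) were next in size. Of the early response genes 4 of 10 rose, among them the sphingosine kinase Sphk1 (2.73, adjusted p = 0.000601) and the transcription factor Snai1 (1.88, adjusted p = 0.0153).

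Of the Smads and their regulators 4 of 13 rose and 0 fell, with a median of -0.24, beside the same 7.13% and 8.01% of all genes. Pmepa1 (1.39, adjusted p = 0.00828), Smad7 (1.07, adjusted p = 0.0303) and Tgif1 (0.86, adjusted p = 0.0277) had the largest changes, and each is known as an inhibitor of the pathway. Of the 12 latency and activation genes tested, 3 rose and 1 fell. The membrane protease Mmp14 (1.76 ± 0.27, adjusted p = 0.00472) and the activator Thbs1 (1.56, adjusted p = 0.0182) rose, and Ltbp4, another latent TGF-β binding protein, went from 363 and 386 CPM to 83.9 to 191 CPM (-1.47, adjusted p = 0.0164). None of the 7 co-receptors and other receptors passed. The steady and injured libraries also differ in depth, as given above.

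In Tom-GFP+ Thy1+ fibroblasts 10 of 60 rose and 0 fell (0.957% and 1.63% of all genes), 9 of them matrix and contractile targets, led by Cthrc1 (6.20, adjusted p = 0.014), Tnc (5.62, adjusted p = 0.021) and Tagln (5.62, adjusted p = 0.0373), and the early response gene Sphk1 rose (3.60, adjusted p = 0.0099). In Tom+ FLS 7 of 56 rose and 3 fell (1.23% and 2.71% of all genes). Col3a1, a fibrillar collagen gene, rose from 670 and 773 CPM to 2756 to 4084 CPM (2.28, adjusted p = 0.000392), and the collagen crosslinker Lox rose (2.24, adjusted p = 0.0205), as did Mmp14 (0.91, adjusted p = 0.028). Tagln (-2.70, adjusted p = 0.0337), Thbs1 (-2.53, adjusted p = 0.0158) and Ltbp4 (-2.44, adjusted p = 0.00391) fell in FLS. For Tagln the FLS levels were 156 and 586 CPM in steady and 11.3 to 103 CPM in injured libraries, and whether the injury effect on Tagln or Thbs1 differed between FLS and Thy1+ fibroblasts was not tested.

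**Figure D5:**
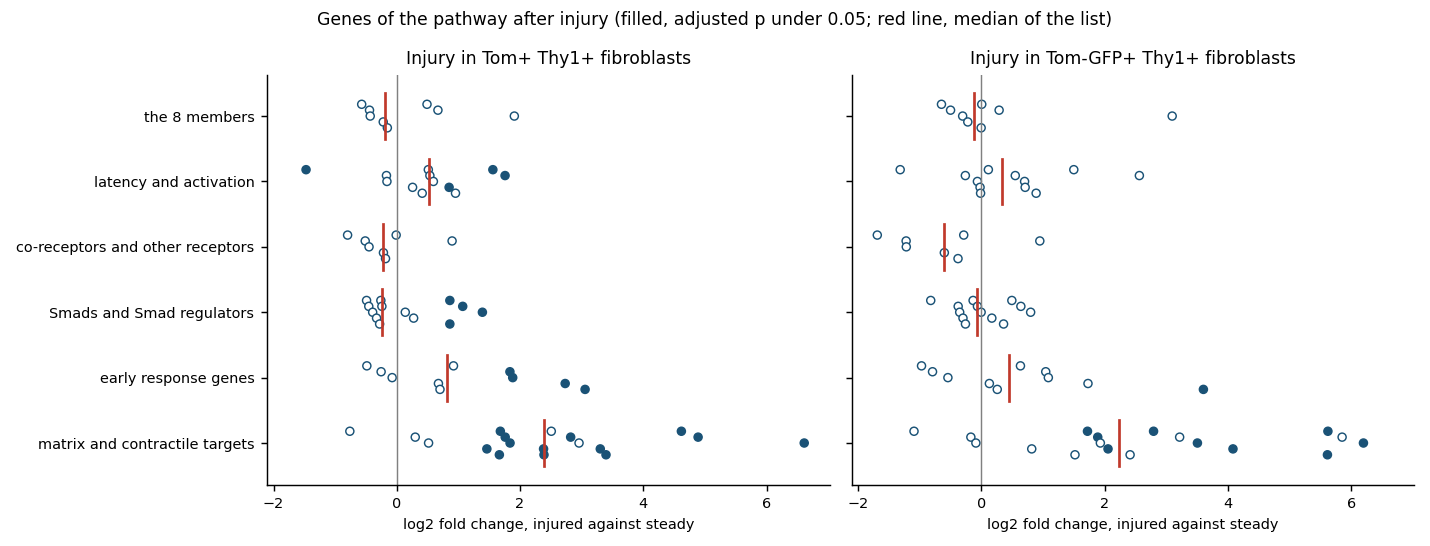
Log2 fold change with injury (x axis) of the 8 genes and of the pathway genes by list in Tom+ (left) and Tom-GFP+ (right) Thy1+ fibroblasts, 1 point per gene, filled where the adjusted p is under 0.05, with a red line at the list's median. In Tom+ cells 13 of the 18 matrix and contractile targets are filled, and none of the 8 genes is.

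Between FLS and Thy1+ fibroblasts, 10 of 59 pathway genes were higher and 32 lower in FLS, with a median of -0.52, where 19.4% of all genes were higher and 20% lower. The integrin gene Itgb8, whose product binds and helps release latent TGF-β, was at 26.4 to 65.6 CPM in FLS and 1.51 to 5.31 CPM in Thy1+ fibroblasts of the same 8 libraries (3.66 ± 0.18, adjusted p = 5.37e-10). The early response gene Ctgf was at 1477 to 2810 CPM in FLS and 111 to 252 CPM in Thy1+ fibroblasts (3.54 ± 0.15, adjusted p = 1.17e-10). In the other direction, Lrrc32 (also GARP), which anchors latent TGF-β at the cell surface, was lower in FLS (-3.55 ± 0.28, adjusted p = 9.77e-08), as were the microfibril gene Fbn1 (-3.09) and 6 of the 7 co-receptors and other receptors, with Acvr1b (-1.83), Nrp1 (-1.44) and Acvr2a (-1.18) the largest. Of the matrix and contractile targets 12 of 17 were lower and 1 higher (median -2.04), with Postn (-5.95), Nox4 (-3.50) and Col1a2 (-3.29) leading.

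In the Lrrc15+ Adam12+ cells 11 of 17 matrix and contractile targets were higher and 3 lower than in the other injured Thy1+ cells, against 7.81% and 7.24% of all genes. Acta2, smooth muscle actin, was higher (2.11 ± 0.37, adjusted p = 0.00188) and Eln, elastin, was lower (-1.76, adjusted p = 0.00406). Of the other lists 3 genes were higher and 7 lower, Ltbp4 (-1.12) and Junb (-1.10) with the largest decreases. The gated cells were also deeper, as given above. With gates on thinned cells 178 genes of the whole table were called, against 1465 in the main setting. The list counts under thinned gates are not given.

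Across 42 sums of a class in a library and 5482 genes, the genes whose log2 CPM followed each member most closely were named by Pearson correlation, as a description, since sums of the same library and class are not independent. For Ltbp1 they were Nfix (0.867), Serpinf1 (0.846) and Mmp2 (0.841). For Tgfb3 they were Mgp (0.855), Cnn3 (0.855) and Cbx6 (0.843), and for Tgfb2 they were Twist1 (0.837), Creb3l1 (0.821) and Gulp1 (0.810). Tgfb2 and Tgfb3 had a correlation of 0.733 with each other. Tgfb1 had lower values with its nearest genes, Rab31 (0.708), Kcnn4 (0.695) and Abr (0.691), and ran against Ltbp1 at -0.53. Tgfbr2 was followed by 1700019D03Rik (0.783), Sema3c (0.753) and Osr1 (0.749), of which Sema3c is a marker used for the Dpp4+ subset. Tgfbi was nearest to Vcan (0.719), Tgfbr1 to Cep250 (0.750) and Ltbp2 to Emilin1 (0.736).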

How the data were processed

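Live knee cells sorted as Tom+ or Tom-GFP+ had been profiled by the authors with 10x Genomics 5′ libraries. The deposited values were raw UMI counts per gene and called cell barcode, without normalization, made with Cell Ranger on GRCm38.p6 according to the submitters' processing notes; the header of 5 libraries' files names software version 3.0.2. No column of another series was present.

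Kept barcodes (4788 of 5161) had 500 genes or more, 1000 UMIs or more and no more than 10% mitochondrial UMIs. Cells were gated by marker genes, and the number of markers each gate requires was set after seeing the data. The 8 members and the lists were chosen with earlier results of these data known. UMIs were summed per class and library with at least 10 cells and scaled as CPM. UMIs are counted once per molecule, so levels were not divided by gene length. Sums were tested with edgeR 4.0.16 (TMM, filterByExpr, quasi-likelihood F test, Benjamini-Hochberg adjustment over all genes, false discovery rate 0.05) in R 4.3.3. Injury and lineage were fitted over all groups, which share 1 estimate of the spread, and class comparisons were fitted with the library as a block. The scripts were tested on simulated data. The SE of a log2 fold change is its absolute value divided by the square root of the F statistic. An interval is the estimate with that SE at 95% under a normal approximation, so it can be narrower than the F test implies. The p-values over class sums treat the libraries as the replicates. Ligand shares were compared with exact permutation tests in Python 3.11.15.

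All 8 members are named. Of each pathway list, the 3 genes with the largest absolute log2 fold change among those called were to be named, and for likeness the 3 genes with the highest correlation, over sums of at least 20 cells and genes at a mean of at least 20 CPM (prior count 2). Some of these are given by count only, and 1 item is not reported here. Doublets were not removed; leaving out the highest 5% of Scrublet scores per library was an alternative. The other alternatives were DESeq2 1.42.0, upper-quartile scaling, no filter on low counts, 2 other cell filters, gates with 1 marker more, gates on cells thinned to 4000 UMIs, classes from clusters (Seurat 5.3.0), the gene list format as a block, the replicate number as a block and leaving out each library. Promoters came from a RefSeq table on GRCm38.p6, which has no entry for Tgfb3, and gene positions from GENCODE vM21.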

Additional observations from a re-analysis of the deposited data

Results flagged for a closer look

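For each of the 8 genes in Thy1+ fibroblasts and in FLS, 16 groups of the 4 injured Tom+ libraries in all, the gap of the highest and of the lowest library to its neighbour was compared with the group's range by Dixon's criterion, under which chance marks about 1 group in 20. Ltbp1 in Thy1+ fibroblasts of Tom+ injured 4 was at 154.78 CPM, apart from 105 to 111 CPM in the other 3 injured Tom+ libraries. Ltbp2 in Thy1+ fibroblasts of Tom+ injured 1 was at 77.593 CPM against 13.1 to 16.8 CPM. Ltbp2 in FLS of the same library was at 39.957 CPM against 1.07 to 2.16 CPM. Tom+ injured 1 was the deepest library and the only injured one with the older gene list format, and the part of either in the Ltbp2 values was not tested.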

How the results depend on the processing

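Of the counts of members called and the ligand shares, 282 alternative values kept direction and side of the threshold, 17 were stronger, 18 were weaker and 3 were reversed. The exact test of the shares cannot reach a p under 0.05 with so few libraries. For the shares, keeping the side of the threshold was therefore fixed in advance and is no sign of stability. Among single-gene values 1935 stayed the same, 41 gained a call, 55 lost a call and 1 was reversed. With no filter on low counts the members called were 1 (from 0) for injury in Tom+ and in Tom-GFP+ Thy1+ fibroblasts, 2 and 1 (from 0) for lineage in injured and steady Thy1+ fibroblasts, 2 (from 1) for injury in Tom+ FLS and 2 (from 1) in Lrrc15+ Adam12+ cells. With the gene list format as a block they were 2, 1 and 0 for injury in Tom+ Thy1+, Tom-GFP+ Thy1+ and Tom+ FLS. Classes from clusters gave 2 in Tom+ FLS, 2 (from 4) in Dpp4+ and 4 in Lrrc15+ Adam12+ cells, and turned the log2 fold change of Tgfb2 in Dpp4+ cells to 0.073. They gave no Prg4+ Thy1- or tenocyte class. One marker more gave 3 (from 5) in chondrocyte-lineage cells and 3 in Lrrc15+ Adam12+ cells, thinned gates gave 3 and 0, leaving out high doublet scores gave 2 in Lrrc15+ Adam12+ cells, and DESeq2 gave 3 (from 5) in Prg4+ Thy1- cells. Leaving out single libraries gave 0 to 1 for injury in both Thy1+ lineages (1 without Tom+ injured 1), 0 to 2 in Tom+ FLS, 2 (without Tom+ injured 2) to 5 in Prg4+ Thy1- cells (3 without Tom+ injured 3 or 4), 3 (without Tom+ injured 2) to 6 (without Tom+ injured 1) in chondrocyte-lineage cells and 2 in Lrrc15+ Adam12+ cells (without Tom+ injured 1 or Tom-GFP+ injured 1). The injured minus steady Tgfb3 share in Thy1+ fibroblasts, -1.58 percentage points, became 0.0791 with 1 marker more and -4.34 to 1.18 when single libraries were left out (1.18 without Tom+ steady 2), and the Tgfb2 share in FLS, -1.95 points, became -4.15 to 0.152 (0.152 without Tom+ steady 1). Genes called over the whole table also moved with the setting. With no filter they were 386 (from 2) for lineage in injured Thy1+ fibroblasts. With thinned gates they were 178 (from 1465) in Lrrc15+ Adam12+ cells. The share of all genes called is not given for each setting. The counts of members called therefore cannot show whether the members changed more than other genes. The causes of the changes were not tested.

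Genes called over the whole table ranged from 323 (without Tom+ steady 1) to 2850 (no filter) for injury in Tom+ Thy1+ fibroblasts (1899), 7 (without Tom-GFP+ injured 1) to 1657 for Tom-GFP+ (324), and 40 (without Tom+ steady 1) to 1049 for Tom+ FLS (355). They ranged from 0 to 80 for the difference between lineages (0), 1 to 386 and 0 to 302 for lineage in injured (2) and steady (4) cells, 425 to 1743 for Prg4+ Thy1- (705), 479 to 1686 for osteoblast-lineage (784) and 178 to 1839 for Lrrc15+ Adam12+ cells (1465). The highest were 2421, 869 and 1617 for chondrocyte-lineage (1583), tenocyte-lineage (416) and Dpp4+ cells (1076), and the lowest was 712 for mural cells (1888, DESeq2). The FLS injury comparison rests on steady FLS of 21 and 29 cells.

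The labels do not say that a replicate number marks a shared mouse, so the libraries were not treated as paired. Deviations of same-numbered libraries correlated at -0.061 to 0.129. The same-numbered injured libraries of the 2 lineages had 0.125 and 0.0924, and Tom+ injured 4 with Tom-GFP+ injured 2 had 0.220. In a group of 2 libraries the deviations mirror each other, so these values cannot decide which mice were matched. The lineage tests take no account of the matching. With the replicate number as a block, Tgfb3 in Tom+ FLS was -1.30 ± 0.36 (adjusted p = 0.131), so 0 members were called there, and the counts of 0 stayed for injury in Tom+ and lineage in injured Thy1+ fibroblasts. The block could not be fitted for comparisons with the Tom-GFP+ steady library, which has no number in the labels.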
